A study of Mus musculus with 6 samples.

Results

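Focal gains were accessible sites that were more open in HAT1-/- than in HAT1+/+ primary mouse embryonic fibroblasts while the sites around them kept their average accessibility. They were chosen by 3 values of the deposited ATAC-Seq table. The first, d, is the HAT1-/- mean minus the HAT1+/+ mean of log2 normalised reads at the site, and it had to be at least 1, a doubling or more. The second, Conc, is the log2 mean of normalised reads over both genotypes, and it had to be at least 4, or 16 reads. The third, m, is the mean of d over 25 consecutive sites centred on the site, and it had to lie between -0.30 and 0.30. Of 225604 autosomal sites (229903 sites in all), 358 met all 3 limits. They were 0.376% of the 95138 autosomal sites that met the limits on Conc and m. The mirrored rule, with d of -1 or less, took 1471 focal losses, or 1.55% of the same sites, and 93309 sites met neither. Since the rule used these values, the sizes of d, Conc and m are given as a description, with no test.

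The study compared MEFs from HAT1+/+ embryos (3 lines) and HAT1-/- embryos (3 lines), all on a C57bl6 background, to ask how the loss of the histone acetyltransferase changed chromatin accessibility. ATAC-Seq maps open chromatin by the ends that Tn5 transposase cuts. The table holds the authors' mean for each genotype, so the spread between lines is not known here, no statement is made on whether the lines of the genotypes overlap, and the depth of each library is unknown.

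HAT1 acetylates lysines of the H4 tail on newly made histones, which are then carried into the nucleus and laid down behind replication forks. Accessible sites away from promoters are mostly enhancers, where sequence-specific factors displace nucleosomes. In fibroblasts the factors bound there are typically AP-1, TEAD and RUNX proteins, and in macrophages and other leukocytes they are typically PU.1, an ETS-family factor, together with RUNX and C/EBP proteins.

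The sequences below are examples of focal gains with a large d or a promoter position that held a motif described further on. Each is the plus strand of 200 bases around the centre of the site (mm10, read from the RefSeq GRCm38.p6 assembly). A gene start in a label is the start of a protein-coding gene. Capitals mark 3 motifs on either strand. The PU.1-type motif is GAGGAAGT, the core of the PU.1 consensus. The RUNX motif is TGTGGT, the core of the consensus of RUNX factors. The AP-1 motif is TGANTCA, where N is any base.
Intergenic site with the largest d, chr15:11716364-11716563: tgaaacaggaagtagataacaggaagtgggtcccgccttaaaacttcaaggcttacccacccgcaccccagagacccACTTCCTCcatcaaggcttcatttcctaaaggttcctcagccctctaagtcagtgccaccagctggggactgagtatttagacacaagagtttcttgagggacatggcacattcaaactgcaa
Lifr intron, chr15:7114042-7114241: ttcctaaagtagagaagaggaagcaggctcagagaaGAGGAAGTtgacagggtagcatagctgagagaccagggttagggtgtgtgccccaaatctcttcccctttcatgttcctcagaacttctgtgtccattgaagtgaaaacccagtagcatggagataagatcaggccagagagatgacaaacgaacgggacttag
Tagap promoter, chr17:7925823-7926022: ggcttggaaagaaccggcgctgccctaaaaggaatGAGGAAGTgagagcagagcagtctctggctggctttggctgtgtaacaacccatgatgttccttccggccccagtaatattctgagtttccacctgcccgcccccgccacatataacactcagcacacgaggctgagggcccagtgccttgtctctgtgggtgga
Hfe promoter, chr13:23706115-23706314: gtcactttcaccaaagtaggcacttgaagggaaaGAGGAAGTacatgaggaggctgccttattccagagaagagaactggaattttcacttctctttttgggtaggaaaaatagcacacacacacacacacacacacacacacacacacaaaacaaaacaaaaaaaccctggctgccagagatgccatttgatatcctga
Cx3cr1 promoter, chr9:120068228-120068427: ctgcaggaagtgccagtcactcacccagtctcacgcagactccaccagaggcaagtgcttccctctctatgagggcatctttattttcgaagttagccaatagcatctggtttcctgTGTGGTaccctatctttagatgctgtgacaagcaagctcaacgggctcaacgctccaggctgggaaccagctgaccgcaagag
Intergenic site assigned to Pde6h, chr6:137046412-137046611: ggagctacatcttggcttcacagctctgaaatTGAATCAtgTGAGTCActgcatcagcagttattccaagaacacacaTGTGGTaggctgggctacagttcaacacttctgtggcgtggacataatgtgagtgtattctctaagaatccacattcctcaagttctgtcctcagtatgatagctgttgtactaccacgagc
Intergenic site over 100 kb from a gene start, chr6:116974962-116975161: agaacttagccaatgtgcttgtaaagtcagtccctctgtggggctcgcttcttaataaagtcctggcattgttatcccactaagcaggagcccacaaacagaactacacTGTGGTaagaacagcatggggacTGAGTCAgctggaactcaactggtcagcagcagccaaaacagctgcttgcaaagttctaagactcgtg
The first 4 each held 1 match to the PU.1-type letters, on the minus strand in the intergenic site. The Cx3cr1 promoter site held the RUNX letters only, and the last pair held the RUNX and AP-1 letters together.

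Focal gains were weak among the sites within the limits on Conc and m. The median Conc was 4.32 in focal gains, 5.01 in the other sites and 3.83 over all autosomal sites, which had no minimum. The HAT1+/+ means of focal gains ran from 3.09 to 6.31 with a median of 3.67, or 12.7 reads. Their HAT1-/- means ran from 4.41 to 7.42 with a median of 4.78, or 27.4 reads. The median d was 1.1 and the largest was 1.79. In all, 177 focal gains had d under 1.1, 50 had d of at least 1.25 and 5 had d of at least 1.5. Conc lay under 4.50 at 234 of them, and only 37 reached 5 and 4 reached 6. Focal losses reached 5 at 472 sites and 6 at 93. The share of focal gains fell with level, from 0.999% of sites with Conc of 4 to 4.25 to 0.422% at 4.5 to 5 and 0.147% at 5 to 5.5. The share of focal losses fell less over the same bands, from 2.39% to 1.91% and 1.67%. The spread of d over sites narrowed as the level rose, with an SD of 0.46 at Conc of 4 to 4.25 and 0.31 at 6 to 7. Above 7, there were 0 focal gains among 10634 sites.

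**Figure D1:**
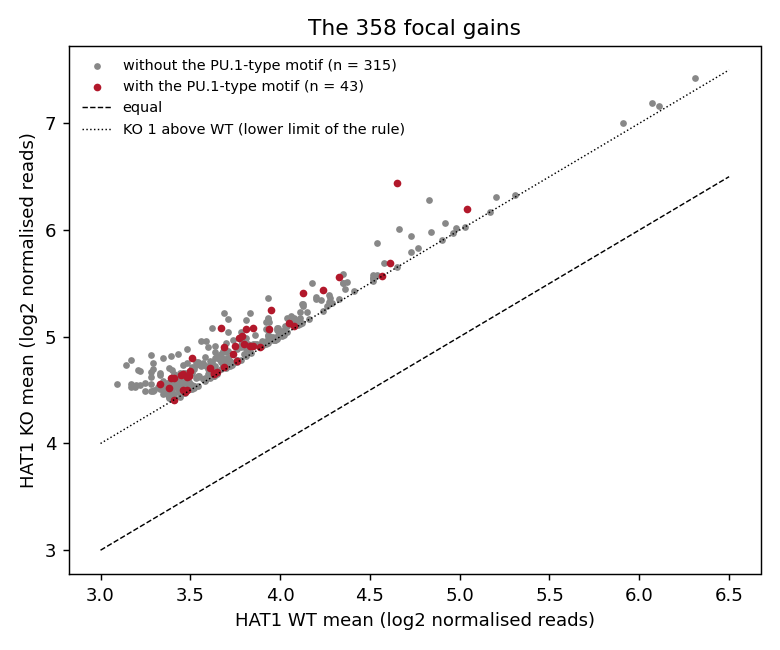
The HAT1+/+ mean (x axis) and the HAT1-/- mean (y axis) of each of the 358 focal gains, in log2 normalised reads, with the 43 sites that hold the PU.1-type motif in red. The sites lie close above the dotted line that marks d of 1, and the middle of the HAT1+/+ means lies between 3.46 and 3.96, their lower and upper quartiles.

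**Figure D2:**
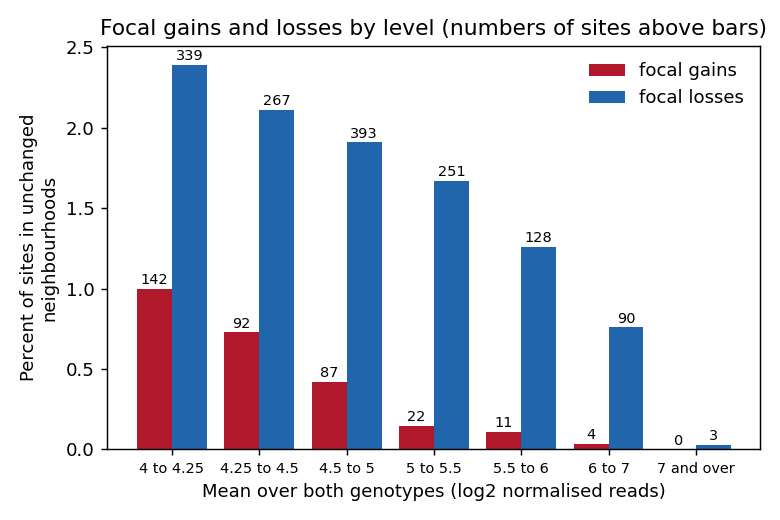
Percent of sites in unchanged neighbourhoods (y axis) that were focal gains (red) or focal losses (blue), by Conc (x axis, log2 normalised reads), with the number of sites above each bar. Focal gains were fewer than focal losses in every band, 142 against 339 at the lowest level and 22 against 251 at Conc of 5 to 5.5.

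The limits cut through a continuous range of values. Just inside the limit on d were a site in Ppm1h, a protein phosphatase gene (d 1.00, Conc 5.76), and an intergenic site on chromosome 10 (d 1.00, Conc 5.62). Just outside were the promoter of Samsn1, which encodes an adaptor of haematopoietic cells (d 0.99, Conc 5.66), and an intron site of P2ry12, the ADP receptor of platelets and microglia (d 0.99, Conc 5.24). A further 317 sites had d from 0.90 to 0.99 within the other limits. Just inside the limit on Conc lay a site in a non-coding gene on chromosome 16 and a Runx2 intron site, both at 4.00, and just outside lay sites of Rbfa and Immp2l, both at 3.99. The limit on m kept an Apbb1ip promoter site (m 0.30) and a site on chromosome 13 (m 0.29), and it left out sites near Mrpl3 (m -0.31) and on chromosome 14 (m -0.31). Only 15 sites with d of at least 1 and Conc of at least 4 fell outside the limit on m, 9 above it and 6 below.

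The excess was mostly restricted to the single site. At the sites directly before and after a focal gain in site order, d averaged 0.07 ± 0.54 (SD over 358 neighbours) and 0.07 ± 0.52, and 55.9% and 53.1% of these neighbours were above 0. Neighbours within 1 kb were higher, with a median d of 0.25 over 129 of them, 69.0% above 0 and 11 at 1 or more. From 1 to 5 kb the median was 0.04 (263 neighbours) and from 5 to 20 kb it was -0.01 (254 neighbours). Neighbours within 1 kb of focal losses had a median of -0.29 (565 neighbours), and those within 1 kb of the other sites -0.06. The choice of m near 0 limits how far the neighbours can move, so these values describe the selected sites.

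**Figure D3:**
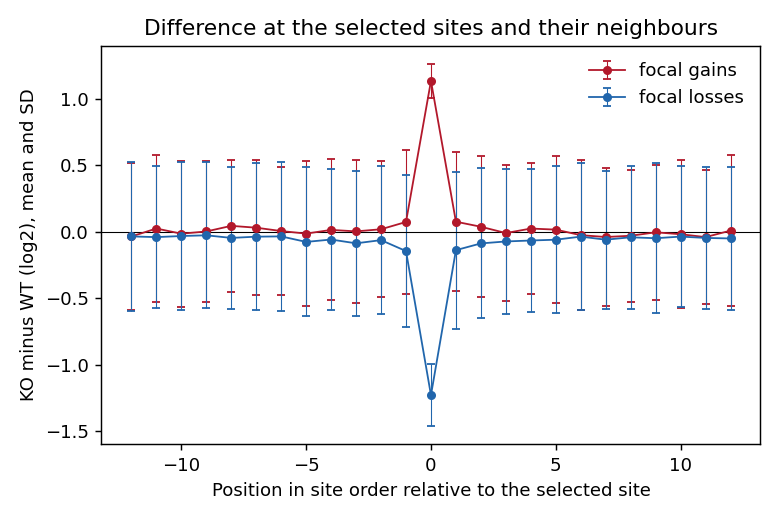
Mean d (y axis, log2; bars are the SD over sites) at the selected site and at the 12 sites before and after it in site order (x axis), for focal gains (red) and focal losses (blue). Focal gains stand at 1.13 at position 0 and at 0.07 at both adjacent positions, and focal losses at -1.23 and about -0.14.

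Focal gains were found on all autosomes. Every autosome held some, from 13 to 34, and their share of the sites within the limits on Conc and m ran from 0.225% on chromosome 11 to 0.657% on chromosome 15. The share of focal losses ran from 1.07% on chromosome 19, where focal gains were at 0.567%, to 1.99%. Only 9 pairs of consecutive focal gains lay within 100 kb of each other and 3 within 10 kb, while 118 of the 358 had another focal gain within 1 Mb. The closest pair lay 221 bp apart in Gins1, a subunit of the GINS replication complex, with d of 1.05 and 1.24. The others within 10 kb were in Enthd1 (d 1.04 and 1.01) and in Ptpro, a receptor-type tyrosine phosphatase gene (d 1.12 and 1.04). Of 291 genes with an assigned focal gain, 277 had 1, 13 had 2 and only St3gal6 had 3. Among the 13 were Notch2, Svil, Gins1, Rabgap1l, Enthd1, Egfem1, Gm20388, St3gal1, Ptpro, Rarb, Wdfy3 and Myo10. St3gal6, which encodes a sialyltransferase, had intron sites with d of 1.28 (HAT1+/+ 3.46, HAT1-/- 4.74) and 1.16 (3.64 and 4.80), and a site 24.0 kb from its start with d of 1.23 (3.33 and 4.56). The 20 remaining sites of St3gal6 ran from -1.53 to 1.17 with a median of 0.28.

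By position, focal gains were introns and intergenic DNA. Introns of protein-coding genes held 168 (46.9%), intergenic DNA 143 (39.9%), non-coding genes 23 (6.42%), promoters within 1 kb of a protein-coding start 18 (5.03%), and UTRs and coding exons 3 each. The median distance to a protein-coding start was 31.6 kb. Focal losses had much the same makeup, with 44.2% in introns, 42.8% intergenic and 4.28% in promoters. Of the other sites 19.2% were in promoters, a share that goes with their higher level (mean Conc 5.36 against 4.46 for focal gains). Promoter share, gene starts within 500 kb, GC content, repeats, motifs and width were not part of the rule, so each was tested. Gene starts were counted over annotated genes of every type, not protein-coding genes alone. The comparison sites were the other sites, set to the levels of the focal gains in bands of 0.5 of Conc, and the focal losses. For each autosome the mean of the focal gains minus that of the comparison sites was taken, and the 19 differences went into a two-sided sign-flip permutation test with Benjamini-Hochberg adjustment over 14 tests. The test asks whether a difference recurs across chromosomes of the same 6 lines, not whether it would recur in other lines.

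At matched level, focal gains were less often promoters than the other sites. Their promoter share was 4.97% against 9.05%, a difference of -4.09 ± 4.71 percentage points (SD over 19 autosomes), and it was lower on 15 autosomes (permutation test, adjusted p = 0.00672). They had fewer gene starts within 500 kb, 22.5 against 26.7 (difference -4.17 ± 5.00, lower on 15 autosomes, permutation test, adjusted p = 0.00371). The GC content of the central 200 bases was lower, 48.7% against 50.0% (difference -1.32 ± 1.36 percentage points, lower on 16 autosomes, permutation test, adjusted p = 0.00238). Against focal losses none of these 3 measures passed the test. The differences were 0.66 ± 5.32 percentage points for promoters, -0.65 ± 4.35 gene starts and 0.74 ± 1.68 percentage points of GC (permutation tests, adjusted p = 0.757, 0.741 and 0.142). The repeat-masked share was 11.0% in focal gains, 10.3% in the other sites and 9.61% in focal losses, and neither difference passed (permutation tests, adjusted p = 0.632 and 0.252).

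Focal gains were narrower than focal losses, and their width was not told apart from that of other sites of their level. Their mean width was 346 bp against 346 bp for the other sites at matched level, with a difference of 0.32 ± 18.7 bp (permutation test, adjusted p = 0.936). Focal losses averaged 501 bp, and the difference of -154 ± 37.1 bp had the same sign on all 19 autosomes (permutation test, adjusted p = 0.00014). This comparison was not matched for level, but within Conc of 4 to 4.25 the mean widths were 299 bp for focal gains, 355 bp for focal losses and 296 bp for the other sites, and at 4.5 to 5 they were 384, 489 and 373 bp. Width comes from the peaks called in the same libraries, so it is not fully independent of the reads that set d.

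CTCF and AP-1 motifs were part of the 14 tests. The CTCF share of focal gains was below that of the other sites and was not told apart from that of focal losses. The AP-1 share was above that of focal losses and was not told apart from that of the other sites. The CTCF consensus, bound by the factor that anchors chromatin loops, was found in only 2 of the 358 focal gains. At matched level the difference from the other sites was -3.04 ± 2.09 percentage points (0.69% against 3.72%), lower on 17 autosomes (permutation test, adjusted p = 0.00091). The 17 lower autosomes held no focal gain with the consensus. Focal losses held it in 9 of 1471 sites (difference 0.10 ± 2.38 percentage points, permutation test, adjusted p = 0.884). The AP-1 motif, bound by Fos and Jun dimers, was found in 100 focal gains (27.9%). The other sites at matched level had 27.2%, a difference of 0.67 ± 10.2 percentage points (permutation test, adjusted p = 0.884). Focal losses had it in 20.2% of sites, and the difference of 7.49 ± 9.90 percentage points was above 0 on 15 autosomes (permutation test, adjusted p = 0.00908). This comparison was not matched for level. By level, the shares in focal gains and focal losses were 31.7% and 23.3% at Conc of 4 to 4.25, 23.9% and 23.2% at 4.25 to 4.5, 25.3% and 18.6% at 4.5 to 5, and 33.3% and 18.7% at 5 to 6.

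A further 13 short motifs were counted after the data had been seen, so their shares are described without a test. The PU.1-type motif differed most in proportion between focal gains and focal losses among those found in at least 1 of each. It was found in 43 focal gains (12%), 20 focal losses (1.36%) and 3.35% of the other sites, or 3.79% of the other sites at the levels of the focal gains. The share in focal gains was above that in focal losses on 16 of 19 autosomes, and above that in the other sites at matched level on 16. It held in each band of level with more than 4 focal gains, from 10.6% against 1.18% and 3.91% at Conc of 4 to 4.25 to 15.2% against 1.06% and 3.56% at 5 to 6. Focal gains with the letters had a median d of 1.14 and a median Conc of 4.42, and those without had 1.09 and 4.32. The intergenic site with the largest d, the Lifr intron site and the promoter sites of Tagap and Hfe printed above were among the 43.

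The RUNX motif was found in 107 focal gains (29.9%), 19.7% of focal losses and 20.7% of the other sites at matched level. The PU.1-type and RUNX motifs occurred together in 14 focal gains (3.91%), in 0.34% of focal losses and in 0.72% of the other sites, not matched for level. Whether they occurred together more often than their separate shares would give was not tested. At least 1 of the PU.1-type, RUNX and AP-1 motifs stood in 198 focal gains (55.3%), against 37.1% of focal losses and 41.1% of the other sites, again not matched for level. In the opposite direction, the TEAD letters GGAATG were found in 13.4% of focal gains, 23.2% of focal losses and 16.8% of the other sites at matched level, and were rarer in focal gains than in focal losses on all 19 autosomes. The FOX letters TGTTTAC were found in 3 focal gains (0.84%), 5.10% of focal losses and 2.44% of the other sites at matched level. The C/EBP letters TTGCNNAA had close shares in the 3 sets (11.7%, 10.7% and 9.74%). The GATA letters AGATAA stood at 6.70%, 6.66% and 7.16%. Close shares were also found for NF-Y (CCAAT, 24.9%, 22.6% and 21.1%), nuclear receptor half-site (AGGTCA, 12.3%, 12.8% and 13.8%), KLF (CCACCC, 15.9%, 15.6% and 17.2%), E-box (CAGCTG, 14.5%, 16.0% and 16.7%) and homeodomain (TAATTA, 3.35%, 2.72% and 2.52%) letters. SOX letters (ACAATG) stood in 8.38%, 11.1% and 10.0%, and the cyclic AMP response element TGACGTCA in 0 focal gains. ETS factors other than PU.1 share the centre of the PU.1-type motif, so the letters do not name the factor. The AP-1 motif occurred together with the PU.1-type motif in 8 focal gains and with the RUNX motif in 34.

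**Figure D4:**
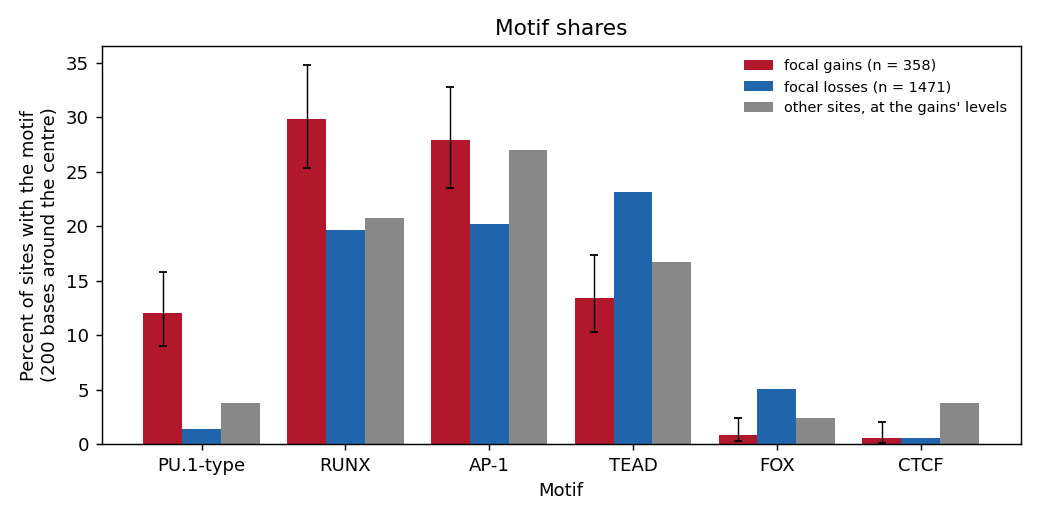
Percent of sites (y axis) whose central 200 bases hold each motif (x axis) in focal gains (red, with 95% Wilson intervals that cover counting error only), focal losses (blue) and the other sites set to the levels of the focal gains (grey). PU.1-type letters stand at 12%, 1.36% and 3.79%, and TEAD letters at 13.4%, 23.2% and 16.8%.

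The same letters were read over all sites within the limits on Conc and m, focal gains included, again without a test. Of the 3189 sites within the limits on Conc and m that held the PU.1-type motif, the median d was 0.16 and 1.35% were focal gains and 0.627% focal losses. Of the 91949 without it, the median d was -0.07 and 0.343% were focal gains and 1.58% focal losses. Sites with the RUNX motif had a median d of -0.04 and those without it -0.07, with 0.596% and 0.325% focal gains and 1.61% and 1.53% focal losses. With and without the AP-1 motif the medians were -0.02 and -0.08, with 0.418% and 0.362% focal gains and 1.24% and 1.65% focal losses. For the TEAD motif they were -0.11 and -0.06, with 0.318% and 0.387% focal gains and 2.26% and 1.41% focal losses. For the FOX motif they were -0.11 and -0.07, with 0.136% and 0.382% focal gains and 3.41% and 1.5% focal losses. Sites with the CTCF consensus had a median d of -0.09 and those without it -0.07, with 0.0692% and 0.386% focal gains. Focal losses were 0.311% and 1.58% of them, and the SD of d was 0.31 and 0.39.

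The 5 focal gains with d of at least 1.5 lay outside promoters, which held only 5.03% of all focal gains. The largest d belonged to an intergenic site 189 kb from the start of Npr3, at chr15:11716156-11716770, with 4.65 in HAT1+/+ and 6.44 in HAT1-/- cells (d 1.79, or 25.1 and 86.8 reads). It was also the only one of the 5 focal gains with d of at least 1.5 whose Conc reached 5. Of the other 4, intron sites of Stk4, the kinase MST1 of the Hippo pathway (3.17 and 4.78, d 1.61), of Rai14 (3.14 and 4.74, d 1.6) and of Epm2a, which encodes laforin (3.28 and 4.83, d 1.55), all had HAT1+/+ means under 10 reads. The fifth, assigned to Pced1b, went from 3.69 to 5.22 (d 1.53).

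Other focal gains with Conc of at least 5 and a large d included an intergenic site on chromosome 8 (4.66 and 6.01, d 1.35). An intron site of Scarb2, a lysosomal membrane protein gene, went from 4.54 to 5.88 (d 1.34), and a site assigned to Pde6h, a cone phosphodiesterase subunit, from 4.35 to 5.59 (d 1.24). Intron sites of Lifr, the leukaemia inhibitory factor receptor (4.33 and 5.56, d 1.23), of the cytoskeletal linker Dst (4.73 and 5.94, d 1.21) and of the autophagy adaptor Wdfy3 (4.92 and 6.07, d 1.15) followed. A site assigned to Svil, which encodes supervillin (5.04 and 6.20, d 1.16), held both the PU.1-type and the RUNX motif. The last 3 were intergenic sites on chromosomes 6 (4.35 and 5.50, d 1.15) and 17 (4.84 and 5.98, d 1.14) and an intron site of Socs6, a suppressor of cytokine signalling (4.35 and 5.50, d 1.15). All of these had neighbourhood means between -0.21 and 0.26.

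The 6 most accessible focal gains had d between 1.02 and 1.12. They were led by the promoter of the zinc finger gene Zfp951 (chr5:104859547-104860483, 6.31 and 7.42), whose only other assigned site had d of 0.94. Then came a site in a non-coding gene on chromosome 12 (6.07 and 7.19), a Mindy4 intron site (6.11 and 7.16) and a Gm9817 site (5.91 and 7.0). The promoter of P2ry14, the receptor for UDP-sugars, had 5.31 and 6.33, and a site 4.84 kb from the start of Ntpcr had 5.20 and 6.31. None of the 6 held the PU.1-type motif.

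Promoter sites were few but named. The 10 with the largest d were led by Fmn2, a formin that nucleates actin (3.19 and 4.53, d 1.34). Next was Cx3cr1, the fractalkine receptor of monocytes, macrophages and microglia (chr9:120068137-120068518, 31 bp from the start, 4.18 and 5.50, d 1.32). The promoter site of Tagap, a GTPase-activating protein of activated T cells, had 3.77 and 4.99 (chr17:7925790-7926054, d 1.22), and that of the iron regulator Hfe had 3.39 and 4.61 (d 1.22). Zfp345 had 3.94 and 5.14 (d 1.20), Tmem54 3.41 and 4.57 (d 1.16), and Rabgap1l, a Rab GTPase-activating protein gene, 3.59 and 4.73 (d 1.14). Intu, an effector of planar polarity and ciliogenesis, had 3.42 and 4.54 (d 1.12), and Evi2a, a gene inside an intron of Nf1, had 3.69 and 4.79 (d 1.10), beside Zfp951 above. At Cx3cr1 the other 23 assigned sites ran from -0.63 to 0.58 with a median of -0.10, and at P2ry14 the other 11 ran from -0.45 to 0.59 with a median of -0.09. At Tagap the other 10 ran from -1.09 to 1.03 with a median of -0.21. In these 3 genes the promoter site was above every other assigned site. The rule required d of at least 1 at these promoter sites, so this order is a description, with no test.

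The 8 listed pathways together held 9 focal gains among 1963 sites within the limits on Conc and m (0.458%), against 0.376% over all such sites. Of 381 sites within the limits on Conc and m assigned to mesenchymal transcription factors, 3 were focal gains (0.787%, against 0.376% over all sites). They were a Runx2 intron site (3.17 and 4.53, d 1.36) and sites assigned to Zeb2 and Tbx15. The site 9.20 kb from the start of Zeb2 had 3.43 and 4.56 (d 1.13). The site 76.2 kb from the start of Tbx15 had 4.06 and 5.12 (d 1.06). TGF-beta and BMP signalling had 2 of 392 (0.51%), a Smad3 intron site (3.25 and 4.57, d 1.32) and a Smad2 site (3.43 and 4.51, d 1.08). Genes of histone assembly, heterochromatin and the lamina had 2 of 80 (2.50%), a site 48.5 kb from the start of Lmnb1, the lamin B1 gene (3.79 and 5.01, d 1.22), and one 2.97 kb from the start of Lbr, the lamin B receptor gene (4.12 and 5.13, d 1.01). The same 80 sites held 2 focal losses (2.50%, against 1.55% over all sites), 1 of them assigned to Lmnb1. The AP-1 family had 1 of 171, 49.5 kb from the start of Bach2 (3.40 and 4.42, d 1.02). Wnt signalling had 1 of 293, 98.7 kb from the start of the Wnt inhibitor Dkk1 (3.35 and 4.59, d 1.24). Fibroblast extracellular matrix (362 sites), senescence and p53-Rb (217) and interferon response (67) genes had 0. These counts of at most 3 sites were not tested against the background of 0.376%.

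Markers of other cell types were read beside these results, since a culture made from embryos can hold other cells. Fibroblast matrix genes had promoters with median levels of 6.57 in HAT1+/+ and 6.37 in HAT1-/- cells, against 5.66 and 5.51 over all promoters. Promoters of mesenchymal transcription factors had medians of 5.26 and 5.28, below those of all promoters. The 8 cell type lists held 0 focal gains among 560 sites within the limits on Conc and m, 58 of them haematopoietic. At the background of 0.376%, lists of this size would hold few or none, so nothing is read from that count. The 10 haematopoietic genes had 133 sites with a median d of 0.16, and 68.4% of them were above 0, against a median of -0.06 and 44.0% over all autosomal sites. Their gene medians were above 0 at 9 of 10 genes, among them Lyz2 (lysozyme, 0.58), Ikzf1 (0.34), Ptprc (CD45, 0.29), Adgre1 (F4/80, 0.26) and Spi1, the PU.1 gene itself (0.14), with Runx3 at -0.01. Summed over the 133 sites, the list had 3380 reads in HAT1+/+ and 3820 in HAT1-/- cells, a ratio of 1.13 against 0.947 over all autosomal sites, and none of its sites was at 0 (lowest 3.43 reads). The promoter sites of the list went the other way, with medians of 5.18 in HAT1+/+ and 4.92 in HAT1-/- cells. Neural (-0.14), smooth muscle (-0.19), cartilage and bone (-0.17), adipose (-0.11) and epithelial (-0.07) genes had median d at or below that of all sites, and endothelial (-0.01) and skeletal and cardiac muscle (0.00) genes had values near 0. The part of haematopoietic cells in the focal gains was not tested. In bulk samples, more cells of a type and more open chromatin per cell cannot be told apart.

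**Figure D5:**
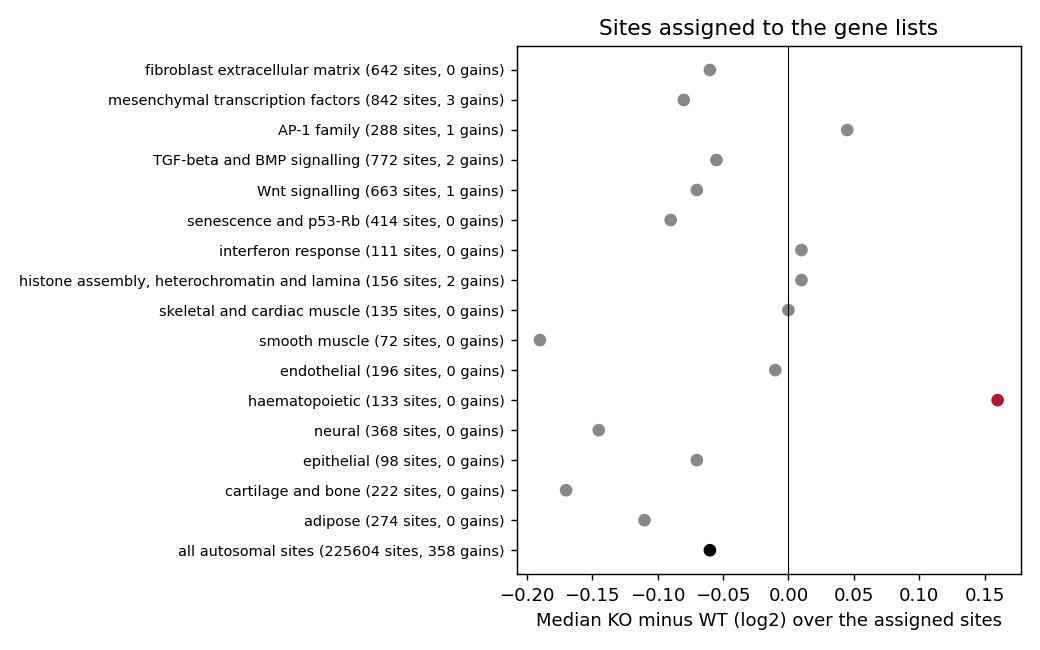
Median d (x axis, log2) over all autosomal sites assigned to each gene list (y axis, with the numbers of sites and of focal gains). The haematopoietic list (red) stands at 0.16 and all autosomal sites (black) at -0.06.

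Several more focal gains, picked out after their values were seen, were assigned to genes known from leukocytes. How common such genes were among all focal gains was not counted. Intron sites of Pik3cg, the PI3-kinase gamma catalytic subunit (3.45 and 4.64, d 1.19), and Fli1, an ETS factor of blood and endothelial cells (3.76 and 4.77, d 1.01), held both the PU.1-type and the RUNX motif. An intron site of Tnfrsf8, which encodes CD30 (3.75 and 4.91, d 1.16), held the PU.1-type motif, as did the promoter of Apbb1ip, the integrin regulator RIAM (4.08 and 5.10, d 1.02). Intron sites of Pik3ap1, the B cell adaptor for PI3-kinase (3.44 and 4.48, d 1.04), and Abi3 (4.10 and 5.11, d 1.01) did not. Others were assigned to genes of other kinds, such as the clock gene Arntl (3.39 and 4.82, d 1.43) and the posterior Hox gene Hoxc10 (3.64 and 4.91, d 1.27).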

How the data were processed

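Primary MEF ATAC-Seq reads of 3 HAT1+/+ and 3 HAT1-/- lines were processed by the authors with the ENCODE pipeline (Bowtie2, mm10, MACS2) and DiffBind 2.14.0. The deposited values are log2 mean normalised reads per site, rounded to 2 decimals, over all lines and per genotype. The library normalisation and the rule for consensus peaks are not given in the sources used here. The authors' fold, p-value and FDR columns hold their own comparison and were not used. Since single lines are not listed, no interval on d between lines and no floor could be set.

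Members and lists were chosen with earlier results of these data known. Sites were annotated by their centre with GENCODE vM21. A gene was assigned when its body held the centre, and otherwise when its protein-coding start was the nearest within 100 kb. Motifs were searched on both strands of the central 200 bases in the GRCm38.p6 sequence. The tests used 100000 sign flips over 19 autosomes (seed 1), with a smallest possible p of 1e-05 and a threshold of 0.05 after adjustment. The rule and the test were tested on simulated data. Alternatives changed the limits, the moving window, the centring of d, the sequence window and the matching of level. Named sites were the 12 with the largest d at Conc of 5 or more, the 6 with the highest Conc, the 10 promoter sites with the largest d, all at genes with 3 or more, up to 4 per gene list, and those at the limits. Others are said to be chosen after seeing values. One of the named sites is not reported here. Python 3.11.15, pandas 2.3.3, numpy 2.4.6 and scipy 1.17.1 were used.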

Additional observations from a re-analysis of the deposited data

How the results depend on the processing

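No paired analysis was possible because the table gives genotype means alone. Leaving out lines in turn was not possible either, and weak sites vary more than strong ones. The number of focal gains was 37 with Conc of at least 5, 5 with d of at least 1.5 and 5935 with no minimum for Conc, and stayed between 251 and 498 under 5 other settings. Centring d on its median gave 498 focal gains and 1279 focal losses, against 358 and 1471 in the main setting.

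With d of at least 1.5, only 3 autosomes gave a difference, too few for any result to pass. Against the other sites the differences were then -9.10 percentage points for promoters, -0.53 gene starts, -2.68 for GC, -27.1 for AP-1, -3.31 for CTCF and -11.1 bp of width. Against focal losses they were -5.56 for promoters, 0.58 gene starts, -1.37 for GC, -19.1 for AP-1 and -226 bp.

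With Conc of at least 5, GC (-2.55) and, against losses, AP-1 (9.16) no longer passed. CTCF (2.83), AP-1 (-1.03) and width (-68.3 bp, adjusted p = 0.0165 in the permutation test) changed sign against the other sites, as did promoters (-0.41) and GC (-0.18) against losses. Gene starts against losses passed (-4.33).

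With d centred on its median, promoters (-0.075) and gene starts (0.66) changed sign and GC passed (0.94) against losses, and width against the other sites was -3.92 bp. Width was -0.65 bp with a moving mean over 51 sites, -0.55 bp without the site itself and -136 bp without matching of level, which passed. GC against losses passed with 51 sites (0.98). With 400 bases around the centre, GC (-0.49) and CTCF (-0.19) changed sign against losses, and the repeat-masked share passed (3.00). Leaving out chromosome 1, or counting promoters within 3 kb, changed no call. The cause of these changes was not tested.

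Under alternatives added after seeing the data, the share of focal gains with the PU.1-type motif was 20.0% with d of at least 1.5 (1 of 5 sites). The share with the RUNX motif was 20.0% there, 35.1% with Conc of at least 5 and 44.7% over 400 bases, where focal losses had 33.1% and the other sites 31.0%.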

Other observations

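The X chromosome lay outside the rule. With the same limits it had 14 sites with d of at least 1 among 1600 (0.875%) and 19 with d of -1 or less (1.19%), where the autosomes had 0.376% and 1.55%. Its median d over 4263 sites was 0.03, against -0.06 on the autosomes.

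Below the limit on level the asymmetry was smaller. Among 113462 autosomal sites with Conc under 4 and m within the limits, 4.92% had d of at least 1 and 5.13% had d of -1 or less.

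Several focal gains were assigned to developmental regulators outside the lists, chosen here after their values were seen. They included sites assigned to Notch2 (3.28 and 4.62, d 1.34, and 3.94 and 5.06, d 1.12), to the retinoic acid receptor gene Rarb (3.94 and 5.07, d 1.13, and 4.10 and 5.13, d 1.03), to Sox4 (3.28 and 4.67, d 1.39) and to Meis1 (3.70 and 4.76, d 1.06). One of the Rarb sites held the PU.1-type, RUNX and AP-1 motifs together.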
